A study of Mus musculus with 21 samples.

Results

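Gene expression of astrocytes, the star-shaped glial cells of the brain, was followed through 10 genes in the midbrain of mice treated with MPTP, irisin or both. The genes were taken by symbol from both deposited tables, where all 10 were found among 33829 genes of the pre-treatment experiment and 55385 genes of the delayed treatment experiment, and all 10 passed the filter on low counts in both. They were Slc1a2, Slc1a3, Aqp4, Gja1, Aldh1l1, S100b and Gfap, which are commonly used as astrocyte markers, and Vim, Serpina3n and Lcn2, which are used as markers of reactive astrocytes. The rule uses only their names.

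Astrocytes clear glutamate from synapses, buffer potassium and water at their endfeet on blood vessels, and are coupled to each other through gap junctions. After injury they become reactive, which is classically read from more GFAP and vimentin filaments and from secreted proteins such as SERPINA3N and lipocalin-2. Signalling by cytokines of the interleukin-6 family through JAK kinases and STAT3 is a known route to GFAP induction. Reactive astrocytes around lost dopaminergic neurons are a well-known feature of the MPTP model, in which a toxic product of MPTP enters these neurons and blocks mitochondrial complex I, while irisin is a muscle hormone that is shed from the membrane protein FNDC5.

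RNA-seq covered 21 male C57BL/6 mice aged 6 weeks in 7 groups of 3. In the pre-treatment experiment, Control_M mice received ddH2O for 10 days, MPTP_M mice received ddH2O for 5 days followed by MPTP at 30 mg/kg per day for 5 days, and Irisin_MPTP_M mice received irisin at 200 μg/kg per day for 5 days followed by the same MPTP course. In the delayed treatment experiment, CONTROL mice received ddH2O for 10 days, IRISIN mice received ddH2O for 5 days and then irisin for 5 days, MPTP mice received MPTP for 5 days and then ddH2O for 5 days, and MPTP_IRISIN mice received MPTP for 5 days and then irisin for 5 days. All injections were intraperitoneal, so that the last MPTP injection lay closer to tissue collection in the pre-treatment experiment. The tissue is labelled midbrain, and according to the methods of the study it was nigral tissue dissected by hand from perfused brains. No group was a genetic model of astrocyte change, and the measurement is of bulk tissue.

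Libraries of the pre-treatment experiment held 66.7 to 75.6 M counts (M, mega) and those of the delayed treatment experiment 48.8 to 77.2 M, and mitochondrial genes took 10.6 to 12.9% and 7.65 to 9.50% of it. Markers of dopaminergic neurons were Th, Slc6a3, Ddc, Slc18a2, Nr4a2 and Pitx3. These 6 genes summed to 233 to 397 counts per mega-count (CPM) in Control_M, 232 to 457 CPM in MPTP_M and 173 to 284 CPM in Irisin_MPTP_M mice. The same sum was 281 to 323 CPM in CONTROL, 252 to 284 CPM in IRISIN, 147 to 232 CPM in MPTP and 150 to 190 CPM in MPTP_IRISIN mice, and all 6 genes were measured in every group. In replicate 2 of MPTP_M, the mouse at 457 CPM, Slc18a2 was at 170 CPM and Ddc at 143 CPM. Slc6a3 was at 65.5 CPM and Th at 51.6 CPM in that mouse. Markers of the choroid plexus, the ventricular tissue that makes cerebrospinal fluid, set single mice apart. Their sum was 1634 CPM in replicate 2 of MPTP_M whereas the other pre-treatment mice had 10.3 to 27.0 CPM, and in the delayed treatment experiment it ranged from 38.8 CPM to 1651 CPM.

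For 3 of the genes whose transcription is used to read the reactive state, the sequence just upstream of the start site is given here, 5′ to 3′ on the strand of the gene (RefSeq, GRCm38.p6). The Gfap stretch is chr11:102897201-102897450 on the minus strand, that of Serpina3n is chr12:104406458-104406707 on the plus strand, and that of Lcn2 is chr2:32387798-32387989 on the minus strand. The Lcn2 stretch has 192 bases and runs from -250 to -59 of the RefSeq start site, since the deposited gene begins upstream of that site. Capitals mark a match to TTCNNNNGAA, the palindrome that STAT proteins can bind, in Gfap and Lcn2, and a match to GNACANNNTGTNC, the palindrome that the glucocorticoid receptor can bind, in Serpina3n.
Gfap: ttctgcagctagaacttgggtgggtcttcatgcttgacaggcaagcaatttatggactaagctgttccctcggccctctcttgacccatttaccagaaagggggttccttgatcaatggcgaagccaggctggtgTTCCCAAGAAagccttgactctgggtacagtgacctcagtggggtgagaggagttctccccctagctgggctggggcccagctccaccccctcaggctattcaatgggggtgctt
Serpina3n: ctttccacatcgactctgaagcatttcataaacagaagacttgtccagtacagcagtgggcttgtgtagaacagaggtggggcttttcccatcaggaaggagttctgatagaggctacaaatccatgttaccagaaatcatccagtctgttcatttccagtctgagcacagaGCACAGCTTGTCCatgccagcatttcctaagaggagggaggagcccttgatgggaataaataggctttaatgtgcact
Lcn2: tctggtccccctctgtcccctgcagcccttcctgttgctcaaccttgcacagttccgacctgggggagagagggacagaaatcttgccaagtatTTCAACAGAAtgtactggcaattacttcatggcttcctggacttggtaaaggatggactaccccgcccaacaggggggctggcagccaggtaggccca
The Gfap match spans positions -115 to -106 from the RefSeq start site, the Lcn2 match spans -156 to -147 and the Serpina3n match spans -78 to -66. In the 250 bases before each of 32851 RefSeq start sites, read on both strands, TTCNNNNGAA was found in 5.85% and GNACANNNTGTNC in 0.387%. A second STAT palindrome, TTCNNNGAA with a spacer of 3 bases in place of 4, was found in 7.02% of them. Among the 10 genes it was found only in Slc1a3, and so not in Gfap or Lcn2. Which STAT protein, STAT3 included, might bind the marked matches was not tested. TGANTCA, the AP-1 palindrome, was found in 6.75% and among the 10 genes in Gja1. The matches do not overlap each other, these motifs were chosen with the sequences in view, and a match of letters is a description of the sequence. RefSeq promoters were matched for 9 of the 10 genes, all but Aqp4.

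All 10 genes are protein coding, and the coordinates of the deposited tables are those of GRCm38. Slc1a2 lies at chr2:102658659-102790784, Slc1a3 at chr15:8634124-8710764, Gja1 at chr10:56377330-56402513, Aldh1l1 at chr6:90486427-90600203, S100b at chr10:76253853-76261159, Gfap at chr11:102887336-102897200, Vim at chr2:13573927-13582826, Serpina3n at chr12:104406729-104414329 and Lcn2 at chr2:32384633-32387797. Exons of Slc1a2 overlap those of the antisense gene Gm13872 by 189 bases, and exons of Aldh1l1 overlap Gm45901 and the antisense gene Gm15756 by up to 499 bases, so that reads there may have been split. The use of strand in counting is not given in the sources used here. Serpina3n has related genes in its cluster, of which the highest, Serpina3g, was at a mean of 3.94 CPM and 3.04 CPM for pre-treatment and delayed treatment respectively. Serpina3n was at 23.2 CPM and 45.3 CPM. How far reads were shared between these genes was not tested.

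Levels of the 10 genes spanned a wide range on the length-corrected scale of the deposited FPKM (fragments per kilobase of gene and per mega-fragment). In the pre-treatment experiment, the highest was S100b, a calcium-binding protein, at 151 to 281 FPKM over the 9 mice, followed by the glutamate transporter Slc1a2 (GLT-1) at 94.7 to 111 FPKM. Next came Gfap at 45.2 to 77.2 FPKM and the water channel Aqp4 at 34.8 to 59.1 FPKM, whose ranges overlap, and then the gap junction protein Gja1 (connexin 43) at 18.0 to 22.9 FPKM. The glutamate transporter Slc1a3 (GLAST) at 10.3 to 16.02 FPKM, the folate enzyme Aldh1l1 at 11.1 to 13.9 FPKM and the secreted protease inhibitor Serpina3n at 8.10 to 11.1 FPKM formed a further step, each overlapping its neighbour. The intermediate filament gene Vim lay at 3.9997 to 6.42 FPKM. Lcn2, which codes for the iron-carrier binding protein lipocalin-2, was at most 0.224 FPKM. Every astrocyte marker was thus present in every mouse, as the tissue label implies, while Lcn2 was counted at most 50 times in a mouse of this experiment.

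**Figure D1:**
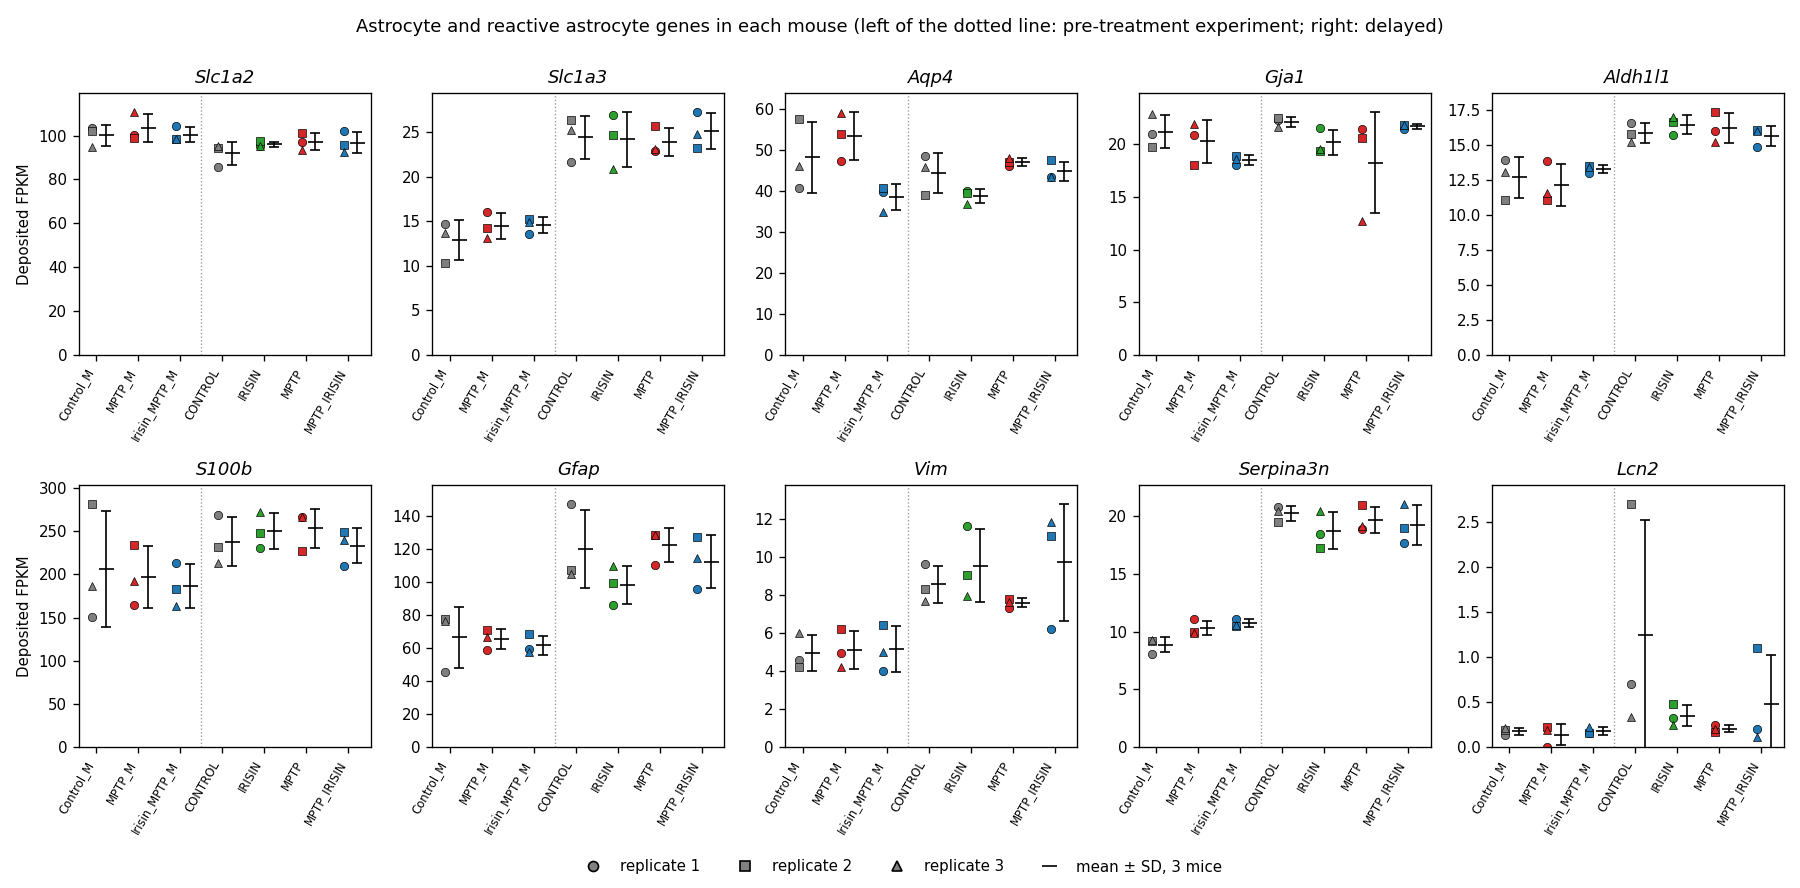
Deposited FPKM (vertical axes, starting at 0) of the 10 genes in each of the 21 mice, with the 7 groups on the horizontal axis. Symbols mark the replicate, the black dash with whiskers is the mean ± SD of 3 mice, and whiskers that reach below 0 end at the axis. Gfap, Slc1a3, Serpina3n and Aldh1l1 lie higher in all 12 mice to the right of the dotted line than in all 9 to its left, while treated and control groups of 1 experiment mostly overlap.

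In the delayed treatment experiment, S100b was again highest at 210 to 273 FPKM. Gfap at 86.0 to 147 FPKM and Slc1a2 at 85.7 to 102 FPKM overlapped, with Aqp4 below them at 36.8 to 48.5 FPKM. Slc1a3 at 20.9 to 27.2 FPKM, Gja1 at 12.7 to 22.5 FPKM, Serpina3n at 17.3 to 21.05 FPKM and Aldh1l1 at 14.9 to 17.4 FPKM each overlapped the next. Vim at 6.19 to 11.8 FPKM and Lcn2 at 0.114 to 2.70 FPKM closed the order.

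In all 12 mice of the delayed treatment experiment, Gfap, Slc1a3, Serpina3n and Aldh1l1 were above all 9 mice of the pre-treatment experiment, on both the CPM and the FPKM scale. On the CPM scale this holds for 7.83% of 21153 genes tested in both tables, and the opposite order, found for 0 of the 10 genes, holds for 6.63%. Median FPKM was 1.94 times higher for Serpina3n (19.3 against 9.98), 1.74 times for Slc1a3 (24.7 against 14.2), 1.65 times for Gfap (110 against 66.4) and 1.23 times for Aldh1l1 (16.04 against 13.1). The medians of Vim and S100b were 1.65 and 1.30 times higher with overlapping ranges, and those of Aqp4 and Slc1a2 were 0.969 and 0.951 times as high. The experiments differ in treatment schedule and were deposited as separate tables, which cannot be told apart, and no test was made across them.

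The spread between mice of 1 group differed between the genes. On the log2 CPM scale, Slc1a2 had the smallest pooled SD within groups, 0.085 in the pre-treatment and 0.061 in the delayed treatment experiment, against a median of 0.201 and 0.206 over all tested genes. Aldh1l1 (0.133 and 0.074), Serpina3n (0.093 and 0.106) and Slc1a3 (0.168 and 0.135) also lay under that median in both experiments. Vim (0.278 and 0.305) and Lcn2 (0.415 and 0.868) lay above it in both, and S100b was at 0.334 in the pre-treatment and 0.142 in the delayed treatment experiment. Gfap was at 0.282 and 0.205 and Gja1 at 0.105 and 0.215.

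S100b and Slc1a3 moved in opposite directions from mouse to mouse, and both varied with the markers of oligodendrocytes, the myelin-forming glia. Over the 21 mice, each on the log2 CPM scale relative to the mean of its experiment, S100b had Pearson's r = 0.94 and Spearman's rho = 0.97 with the summed CPM of 5 oligodendrocyte markers (Mbp, Mog, Mag, Mobp and Cnp). Within the pre-treatment experiment r was 0.95, within the delayed treatment experiment it was 0.91, and without the 2 mice farthest from the median marker sum it was 0.91. For Slc1a3 the corresponding values were r = -0.86 and rho = -0.81 over all mice, r = -0.89 and -0.83 within the experiments, and r = -0.71 without those 2 mice. Replicate 2 of Control_M had the highest oligodendrocyte sum of the pre-treatment experiment (7136 CPM, the other 8 mice being at 4371 to 5830 CPM), and the highest S100b (281 FPKM) and the lowest Slc1a3 (10.3 FPKM) of all 21 mice. The remaining 8 genes had r between -0.49 (Aldh1l1) and 0.45 (Gfap) with the same sum. These are descriptions without a p, all genes of a mouse share its library, and fewer cells of a type and less RNA per cell cannot be told apart in bulk tissue. S100b, although widely used as an astrocyte marker, is also known to be made by oligodendrocytes.

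**Figure D2:**
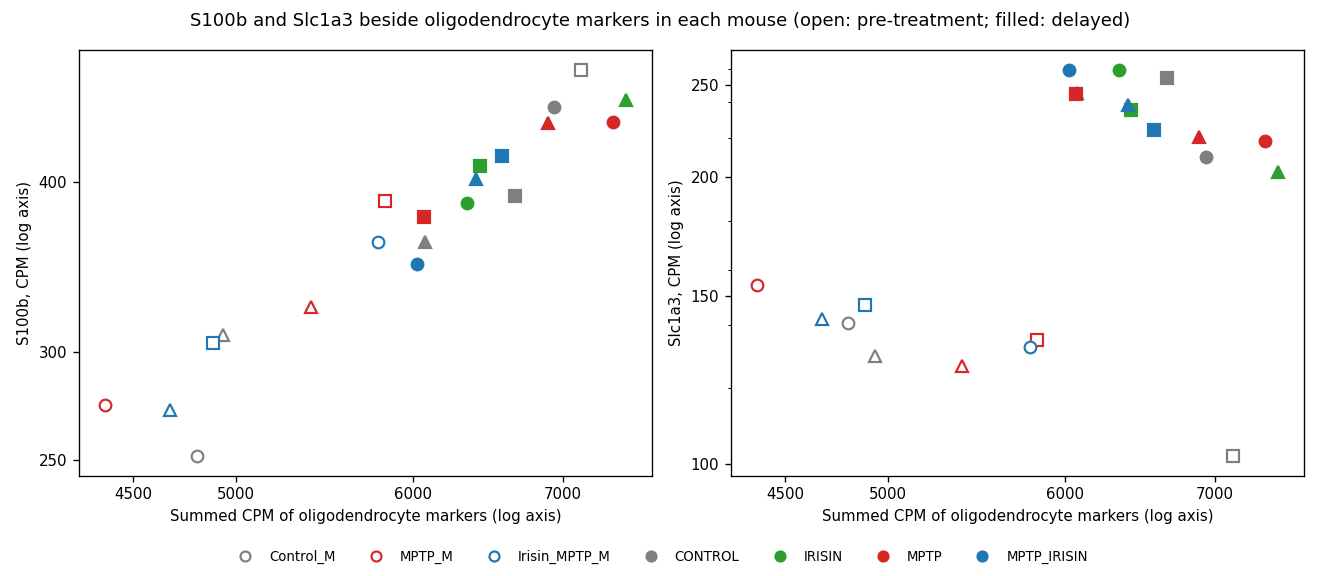
S100b (left) and Slc1a3 (right) in CPM against the summed CPM of 5 oligodendrocyte markers, all on log axes, with 1 symbol per mouse, open for pre-treatment and filled for delayed treatment. S100b is higher and Slc1a3 lower in mice with a higher marker sum, in both experiments, with replicate 2 of Control_M, an open grey square, at 7136 CPM.

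Among the 45 pairs of the 10 genes, S100b and Slc1a3 had the lowest r, -0.83 (rho -0.81), with -0.82 in the pre-treatment and -0.91 in the delayed treatment experiment, and r was -0.69 without the 2 mice farthest from the median of Slc1a3. The highest r was that of Gfap and S100b, 0.62 (rho 0.58), followed by Gfap and Aqp4 at 0.60 (rho 0.65). The astrocyte genes thus did not share 1 pattern over the mice. Of 20770 genes tested in both tables, those most like Gfap by Pearson's r over the 21 mice were Stard3 (0.83), Psenen (0.81) and Ttf2 (0.81), and those most like Slc1a2 were Trim37 (0.80), Pag1 (0.79) and Lpgat1 (0.79). In the same order, r was 0.84, 0.77, 0.84, 0.90, 0.74 and 0.79 in the pre-treatment experiment. In the delayed treatment experiment it was 0.82, 0.84, 0.78, 0.68, 0.86 and 0.79. These genes were picked as the highest of 20770 values, which by itself gives high r, and no test was made.

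Does MPTP change astrocyte genes shortly after its last injection? In MPTP_M against Control_M mice, 0 of the 10 genes passed an adjusted p of 0.05 in edgeR's quasi-likelihood test, DESeq2 or limma, as against 0.0221% of all 22641 tested genes in edgeR. At an unadjusted p under 0.05, 1 of the 10, Serpina3n, passed in each of the 3 tools, where 6.03% of all tested genes passed in edgeR. The median log2 fold change of the 10 genes was 0.00, as it was over all tested genes (-0.00).

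Serpina3n was at 8.10, 9.23 and 9.23 FPKM in the 3 Control_M mice, 11.1, 9.98 and 9.91 FPKM in the 3 MPTP_M mice, and 11.1, 10.5 and 10.5 FPKM in the 3 Irisin_MPTP_M mice. Every mouse given MPTP, with or without irisin, was above every Control_M mouse, where 11.6% of all tested genes had groups that did not overlap in MPTP_M against Control_M. For Serpina3n the log2 fold change was 0.21 (SE 0.09, 95% CI 0.01 to 0.42) for MPTP_M against Control_M, with an adjusted p of 0.823 in edgeR (quasi-likelihood test, Benjamini-Hochberg adjustment). For Irisin_MPTP_M against Control_M it was 0.27 (SE 0.09, 95% CI 0.06 to 0.48), with an adjusted p of 0.581 in the same test. These comparisons share the Control_M mice. Between Irisin_MPTP_M and MPTP_M the log2 fold change of Serpina3n was 0.06 (95% CI -0.15 to 0.26).

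Gfap was at 45.2, 77.2 and 76.5 FPKM in Control_M mice, at 58.9, 70.5 and 66.4 FPKM in MPTP_M mice and at 59.2, 68.3 and 57.6 FPKM in Irisin_MPTP_M mice. The Control_M mice spanned the whole range of both other groups, with replicate 1 low. The log2 fold change of Gfap was -0.03 (SE 0.19, 95% CI -0.46 to 0.40, edgeR's adjusted p = 0.995) for MPTP_M against Control_M, so that differences of up to about 0.4 in either direction were within the error. Its sign turned in 5 of 14 alternatives, and it lay between -0.26 without replicate 1 of Control_M and 0.11 without replicate 2 of Control_M. The other filament gene, Vim, was at 4.56, 4.21 and 6.01 FPKM in Control_M and at 4.92, 6.20 and 4.20 FPKM in MPTP_M mice, with a log2 fold change of 0.05 (95% CI -0.41 to 0.51).

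The glutamate transporters did not pass the test either. The log2 fold change of Slc1a2 was 0.04 (95% CI -0.11 to 0.20) and that of Slc1a3 was 0.16 (95% CI -0.12 to 0.44) for MPTP_M against Control_M. Aldh1l1 was at -0.07 (95% CI -0.30 to 0.17), Gja1 at -0.07 (95% CI -0.26 to 0.12), Aqp4 at 0.14 (95% CI -0.19 to 0.46) and S100b at -0.08 (95% CI -0.61 to 0.44) on the same log2 scale. The interval of Slc1a2 was the narrowest of the 10.

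Lcn2 was counted 28, 41 and 44 times in the 3 Control_M mice, 0, 47 and 44 times in MPTP_M and 36, 34 and 50 times in Irisin_MPTP_M mice. The count of 0 in replicate 1 of MPTP_M stands alone against at least 28 in the other 8 mice, and a gene counted 0 times in 1 mouse and at least 28 times in all others was found 1 to 5 times in each mouse of that experiment. With that mouse the log2 fold change of MPTP_M against Control_M was -0.39 (95% CI -2.58 to 1.80), and without it 0.18.

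**Figure D3:**
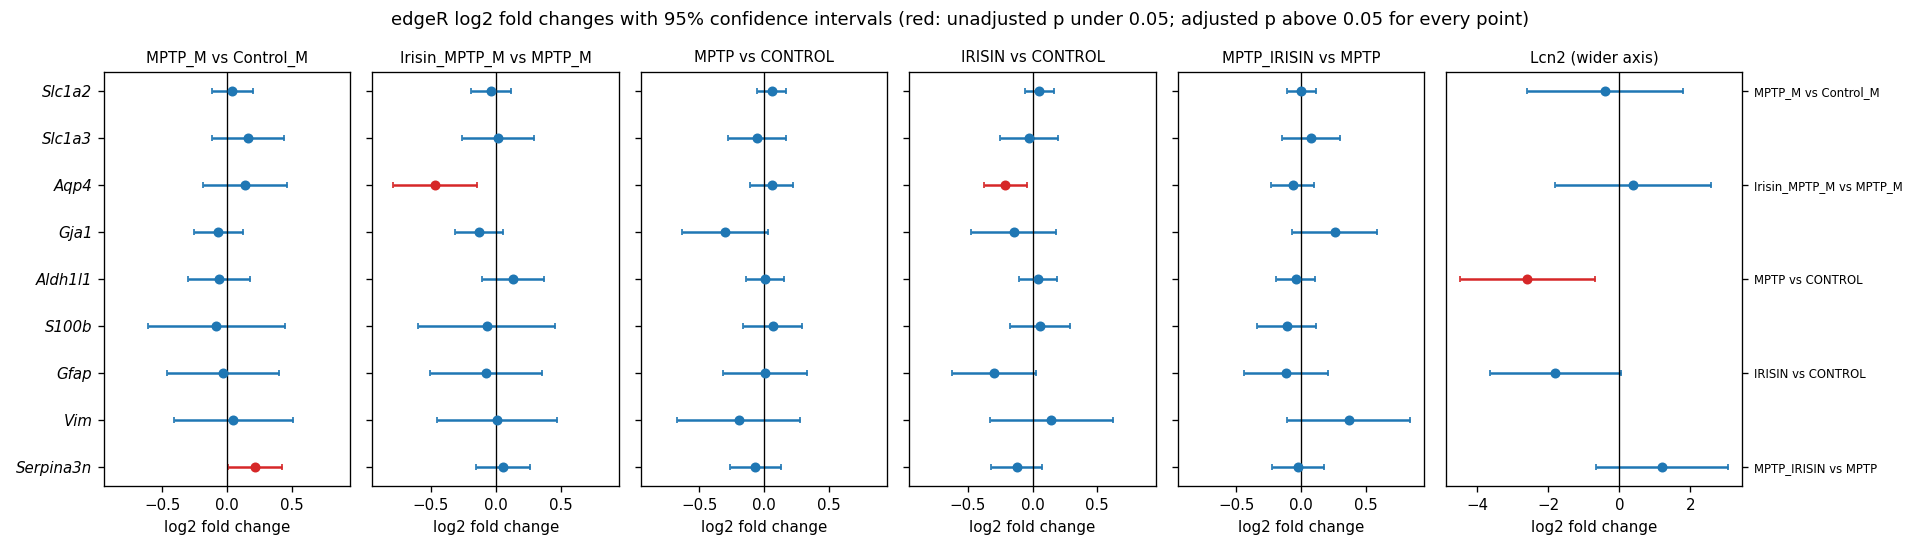
Log2 fold changes from edgeR (horizontal axes) with 95% confidence intervals for 9 genes in 5 comparisons, and for Lcn2 on a wider axis in the last panel. Red marks an unadjusted p under 0.05, found for Serpina3n, Aqp4 in 2 comparisons and Lcn2, and no point passed an adjusted p of 0.05.

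Irisin given before MPTP was compared with MPTP alone in Irisin_MPTP_M against MPTP_M mice. Here 0 of the 10 genes passed an adjusted p of 0.05 in edgeR, DESeq2 or limma, against 0.0707% of all tested genes in edgeR. At an unadjusted p under 0.05, 1 of the 10 passed in each of these tools, against 6.22% of all tested genes in edgeR, and 1 of the 10 had groups that did not overlap, against 14.2% of all. This gene was Aqp4, which forms the main water channel of astrocyte endfeet. The median log2 fold change was -0.01 over the 10 genes and 0.00 over all tested genes.

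Aqp4 was at 40.8, 57.6 and 46.1 FPKM in Control_M mice, 47.3, 53.8 and 59.1 FPKM in MPTP_M mice and 39.8, 40.8 and 34.8 FPKM in Irisin_MPTP_M mice. All 3 mice given irisin before MPTP were below all 3 given MPTP alone, while replicate 1 of Control_M was level with the highest of them and the other 2 Control_M mice were above. Against MPTP_M the log2 fold change was -0.47 (SE 0.14, 95% CI -0.79 to -0.14), with an adjusted p of 0.579 in edgeR (quasi-likelihood test, Benjamini-Hochberg adjustment). Leaving out each mouse in turn gave -0.55 to -0.38. Against Control_M it was -0.33 (95% CI -0.66 to -0.00, edgeR's adjusted p = 0.698), and it lay between -0.45 without replicate 1 and -0.16 without replicate 2 of Control_M.

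Gja1 was at 21.02, 19.7 and 22.9 FPKM in Control_M, 20.8, 18.0 and 21.9 FPKM in MPTP_M and 18.0, 18.9 and 18.6 FPKM in Irisin_MPTP_M mice. The 3 Irisin_MPTP_M mice were below every Control_M mouse and overlapped MPTP_M. On the log2 scale Gja1 differed by -0.13 (95% CI -0.32 to 0.06) against MPTP_M and -0.20 (95% CI -0.39 to -0.01, edgeR's adjusted p = 0.676) against Control_M.

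For the remaining genes the log2 fold change of Irisin_MPTP_M against MPTP_M lay between -0.08 for Gfap (95% CI -0.51 to 0.35) and 0.38 for Lcn2 (95% CI -1.81 to 2.57). Slc1a2 was at -0.04 (95% CI -0.19 to 0.12), Slc1a3 at 0.02 (95% CI -0.26 to 0.30), Aldh1l1 at 0.13 (95% CI -0.10 to 0.37), S100b at -0.07 (95% CI -0.60 to 0.46) and Vim at 0.01 (95% CI -0.45 to 0.47). In Irisin_MPTP_M against Control_M mice, 0 of the 10 genes passed an adjusted p of 0.05 in edgeR, DESeq2 or limma (0.0707% of all in edgeR), and 3 in edgeR, 2 in DESeq2 and 3 in limma had an unadjusted p under 0.05 (7.12% of all in edgeR). The 3 were Serpina3n, Gja1 and Aqp4. Groups did not overlap for 2 of the 10, Serpina3n and Gja1, against 13.6% of all tested genes.

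In the delayed treatment experiment the mice were taken after a further 5 days without MPTP. For MPTP against CONTROL, 0 of the 10 genes passed an adjusted p of 0.05 in edgeR, DESeq2 or limma, against 0.132% of 21922 tested genes in edgeR, and 1 of the 10, Lcn2, had an unadjusted p under 0.05 in each tool, against 8.33% of all tested genes in edgeR. Groups did not overlap on the CPM scale for 3 of the 10, Lcn2, Gja1 and Vim, all lower in MPTP mice, against 16.2% of all tested genes. The median log2 fold change was -0.03 over the 10 genes and -0.00 over all tested genes.

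Lcn2 was counted 103, 420 and 57 times in the CONTROL mice, 53, 87 and 43 times in IRISIN, 45, 41 and 35 times in MPTP and 35, 169 and 20 times in MPTP_IRISIN mice. Replicate 2 of CONTROL and replicate 2 of MPTP_IRISIN stood well above the other mice of their groups. MPTP against CONTROL gave a log2 fold change of -2.59 (SE 0.86, 95% CI -4.49 to -0.69), with an adjusted p of 0.436 in edgeR (quasi-likelihood test, Benjamini-Hochberg adjustment). Without replicate 2 of CONTROL it was -1.35 with an adjusted p of 0.714 in edgeR's test, and with limma it was -1.72 on log2(FPKM + 0.1) and -0.76 on log2(FPKM + 1), a scale on which changes of low genes are understated. The other log2 fold changes of Lcn2 were -1.80 (95% CI -3.64 to 0.04) for IRISIN against CONTROL and 1.21 (95% CI -0.65 to 3.07) for MPTP_IRISIN against MPTP, and the latter was -0.31 without replicate 2 of MPTP_IRISIN.

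Lcn2 is also made by neutrophils and by epithelial cells, and markers of such cells were read in the same mice. The choroid plexus sum (Ttr, Folr1, Kl, Clic6 and Kcnj13) was 1501, 1347 and 235 CPM in CONTROL, 61.4 to 293 CPM in IRISIN, 38.8, 88.6 and 1538 CPM in MPTP, and 172, 1651 and 572 CPM in MPTP_IRISIN mice. The 3 mice with over 100 counts of Lcn2 were thus among the mice with a high choroid plexus sum, whereas replicate 3 of MPTP and replicate 2 of MPTP_M had such a sum with 35 and 47 counts of Lcn2. The sum of 6 neutrophil markers was 3.09 to 6.05 CPM in CONTROL, 3.53 to 5.46 CPM in IRISIN, 1.81 to 2.49 CPM in MPTP and 4.40 to 5.71 CPM in MPTP_IRISIN mice. At an unadjusted p under 0.05 in edgeR, 3 of the 5 tested neutrophil markers were lower and 0 higher in MPTP against CONTROL, against 8.33% of all tested genes in either direction. The sum was lower in every MPTP mouse than in every mouse of the other groups of that experiment, and was highest in the 2 mice of that experiment with the most Lcn2. Replicate 1 of CONTROL, the next in Lcn2 with 103 counts, had the lowest neutrophil sum outside the MPTP group, 3.09 CPM. In the pre-treatment experiment it was 0.746 to 3.21 CPM in Control_M, 1.78 to 5.98 CPM in MPTP_M and 0.850 to 2.73 CPM in Irisin_MPTP_M mice, with Camp and Mmp8 at 0 in all Control_M mice. Over the 21 mice, on the log2 scale relative to the mean of each experiment, Lcn2 had Pearson's r = 0.34 with the choroid plexus sum. Its r was 0.12 with the neutrophil sum and 0.51 with the sum of neuronal markers. For the choroid plexus, neutrophil and neuronal sums, r was 0.24, -0.14 and 0.51 within the pre-treatment experiment. Within the delayed treatment experiment r was 0.45, 0.47 and 0.53. Without the 2 mice farthest from the median of each sum, r over both experiments was 0.27, 0.10 and 0.35. The part of neutrophils or epithelial cells in the Lcn2 counts was not tested.

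**Figure D4:**
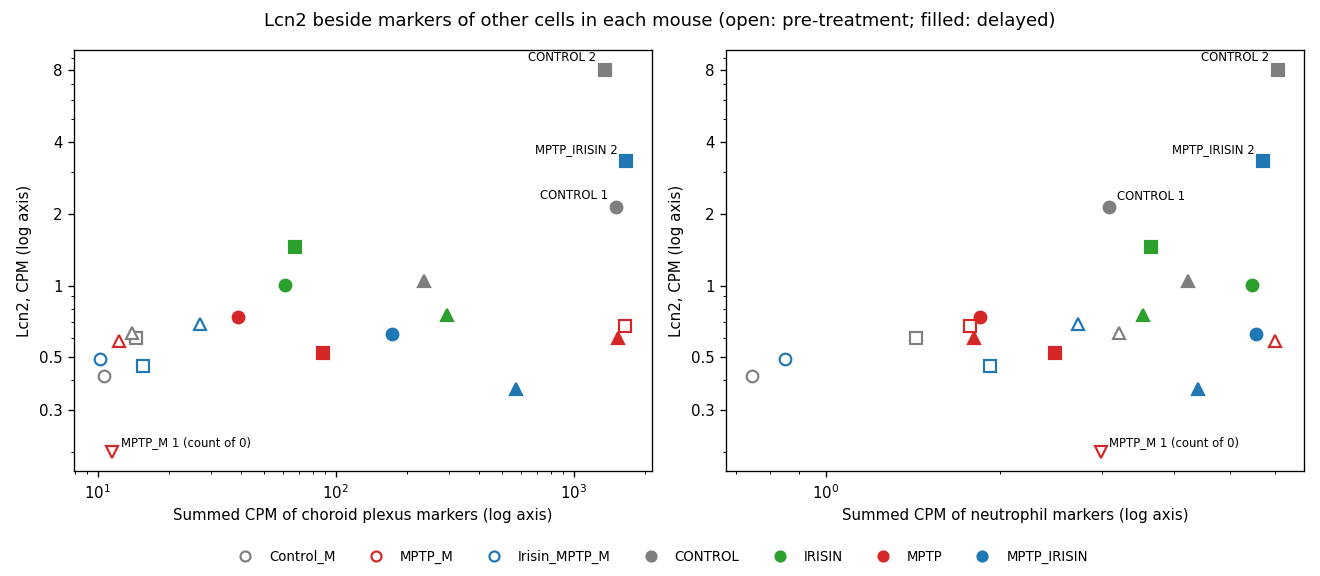
Lcn2 in CPM against the summed CPM of choroid plexus markers (left) and neutrophil markers (right) in each of the 21 mice, on log axes, open for pre-treatment and filled for delayed treatment. The mouse with a count of 0 is drawn as a triangle at the bottom, and the 3 mice labelled at the top have 1347 to 1651 CPM of choroid plexus markers.

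Gja1 was at 22.3, 22.5 and 21.6 FPKM in CONTROL, 21.6, 19.4 and 19.6 FPKM in IRISIN, 21.4, 20.6 and 12.7 FPKM in MPTP and 21.5, 21.8 and 21.9 FPKM in MPTP_IRISIN mice. Replicate 3 of MPTP was far below the other 11 mice, while the other 2 MPTP mice were just below the CONTROL mice. For MPTP against CONTROL the log2 fold change of Gja1 was -0.30 (SE 0.15, 95% CI -0.63 to 0.03, edgeR's adjusted p = 0.634), and without replicate 3 of MPTP it was -0.10. That of MPTP_IRISIN against MPTP was 0.26 (95% CI -0.07 to 0.59), and without the same mouse it was 0.06. Replicate 3 of MPTP also had 1538 CPM of choroid plexus markers. Replicates 1 and 2 of CONTROL and replicate 2 of MPTP_IRISIN had 1501, 1347 and 1651 CPM of these markers. Their Gja1 was at 22.3, 22.5 and 21.8 FPKM. The part of choroid plexus tissue in Gja1 levels was not tested.

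Gfap, the filament protein by which reactive astrocytes are stained, was at 147, 107 and 105 FPKM in CONTROL, 110, 128 and 128 FPKM in MPTP, 86.0, 99.1 and 109 FPKM in IRISIN and 95.4, 127 and 114 FPKM in MPTP_IRISIN mice. The MPTP mice lay between the highest and the lowest CONTROL mouse. MPTP against CONTROL gave a log2 fold change of 0.00 (SE 0.15, 95% CI -0.32 to 0.33, edgeR's adjusted p = 0.998). Vim was at 9.63, 8.31 and 7.68 FPKM in CONTROL and at 7.31, 7.78 and 7.62 FPKM in MPTP mice, groups that overlap on this scale though not in CPM. Its log2 fold change was -0.20 (95% CI -0.67 to 0.28).

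Neither glutamate transporter passed the test at this later time. For MPTP against CONTROL the log2 fold change was 0.06 (95% CI -0.05 to 0.17) for Slc1a2 and -0.05 (95% CI -0.28 to 0.17) for Slc1a3. Aqp4 was at 0.06 (95% CI -0.11 to 0.22), Aldh1l1 at 0.01 (95% CI -0.14 to 0.15), S100b at 0.06 (95% CI -0.16 to 0.29) and Serpina3n at -0.07 (95% CI -0.26 to 0.13). Serpina3n, at 20.8, 19.5 and 20.5 FPKM in CONTROL and 18.9, 20.9 and 19.1 FPKM in MPTP mice, thus had its 2 groups overlapping here, in contrast with the pre-treatment experiment, and the difference between the experiments was not tested.

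Irisin alone was compared with vehicle in IRISIN against CONTROL mice. In this comparison 0 of the 10 genes passed an adjusted p of 0.05 in edgeR, DESeq2 or limma (0.109% of all tested genes in edgeR), while 1 in edgeR, 2 in DESeq2 and 1 in limma had an unadjusted p under 0.05, against 8.97% of all in edgeR. Groups did not overlap for 1 of the 10, Gja1, against 15.1% of all. The median log2 fold change was -0.07 over the 10 genes and -0.00 over all tested genes.

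Aqp4 was at 48.5, 39.0 and 45.8 FPKM in CONTROL, 39.9, 39.5 and 36.8 FPKM in IRISIN, 46.1, 47.0 and 48.0 FPKM in MPTP and 43.4, 47.5 and 43.5 FPKM in MPTP_IRISIN mice. The IRISIN mice overlapped CONTROL only through replicate 2 of CONTROL and were below all mice of both MPTP groups. The log2 fold change of Aqp4 was -0.21 (SE 0.08, 95% CI -0.38 to -0.05) for IRISIN against CONTROL, with an adjusted p of 0.499 in edgeR (quasi-likelihood test, Benjamini-Hochberg adjustment), and -0.30 to -0.15 when each mouse was left out in turn. For MPTP_IRISIN against IRISIN it was 0.21 (95% CI 0.04 to 0.37), and for MPTP_IRISIN against MPTP it was -0.06 (95% CI -0.23 to 0.10). These comparisons share mice and are not independent of each other.

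Gfap had a log2 fold change of -0.30 (SE 0.15, 95% CI -0.62 to 0.02, edgeR's adjusted p = 0.570) for IRISIN against CONTROL, which was -0.13 without replicate 1 of CONTROL, the mouse at 147 FPKM. Gja1 was at -0.15 (95% CI -0.48 to 0.18), Serpina3n at -0.12 (95% CI -0.32 to 0.08) and Vim at 0.15 (95% CI -0.33 to 0.62). Slc1a2 at 0.05, Slc1a3 at -0.03, Aldh1l1 at 0.04 and S100b at 0.06 differed by less than the spread between mice on the same log2 scale.

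Irisin given after MPTP was compared with MPTP alone in MPTP_IRISIN against MPTP mice. Here 0 of the 10 genes passed an adjusted p of 0.05 (0.00456% of all tested genes in edgeR), and 0 had an unadjusted p under 0.05 in edgeR, DESeq2 or limma, where 3.90% of all tested genes did in edgeR. Groups did not overlap for Gja1 alone, against 10.7% of all. Vim was at 6.19, 11.1 and 11.8 FPKM in MPTP_IRISIN mice, with replicate 1 below and the other 2 above all MPTP mice. Markers of meningeal fibroblasts (Dcn, Col1a1, Col1a2 and Lum) summed to 58.0 CPM in that replicate 1, and to 107 and 125 CPM in the other 2. The part of such cells in Vim levels was not tested. The log2 fold change of Vim was 0.37 (SE 0.22, 95% CI -0.11 to 0.84, edgeR's adjusted p = 0.9995), and without replicate 1 of MPTP_IRISIN it was 0.61 with an adjusted p of 0.599 in edgeR's test. Gfap was at -0.11 (95% CI -0.44 to 0.21), Slc1a2 at 0.00 (95% CI -0.11 to 0.12), Slc1a3 at 0.08 (95% CI -0.14 to 0.30), Aldh1l1 at -0.04 (95% CI -0.19 to 0.10), S100b at -0.11 (95% CI -0.34 to 0.12) and Serpina3n at -0.02 (95% CI -0.22 to 0.18).

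MPTP followed by irisin was also set against each single control. In MPTP_IRISIN against CONTROL mice, 0 of the 10 genes passed an adjusted p of 0.05 (0.109% of all in edgeR), and 0 had an unadjusted p under 0.05 in edgeR, DESeq2 or limma (9.31% of all in edgeR), and no gene of the 10 had groups that did not overlap (14.6% of all). In MPTP_IRISIN against IRISIN mice 0 of the 10 passed an adjusted p of 0.05 (0.00456% of all in edgeR), and Aqp4 alone had an unadjusted p under 0.05 in all 3 tools (3.88% of all in edgeR) and was the 1 gene whose groups did not overlap (8.69% of all). Whether irisin acted differently with MPTP was tested as an interaction, the difference between MPTP_IRISIN against MPTP and IRISIN against CONTROL. Again 0 of the 10 passed an adjusted p of 0.05 in edgeR, DESeq2 or limma (0.0411% of all in edgeR), and 1 in edgeR, 1 in DESeq2 and 0 in limma had an unadjusted p under 0.05 (5.57% of all in edgeR). This was Lcn2, with an interaction of 3.01 on the log2 scale (95% CI 0.39 to 5.62, edgeR's adjusted p = 0.893), which was 1.49 without replicate 2 of MPTP_IRISIN and 1.77 without replicate 2 of CONTROL. With limma this interaction of Lcn2 was 1.69 on log2(FPKM + 0.1) and 0.83 on log2(FPKM + 1). The interaction of Gja1 was 0.41 (95% CI -0.06 to 0.87), that of Gfap was 0.19 (95% CI -0.27 to 0.65) and that of Aqp4 was 0.15 (95% CI -0.08 to 0.39).

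Further astrocyte genes were read from 5 lists. Of 16 genes of resting astrocytes, such as glutamine synthetase Glul, the potassium channel Kcnj10 and connexin 30 (Gjb6), 0 passed an adjusted p of 0.05 in edgeR in any of the 9 comparisons, and 0 to 5 per comparison had an unadjusted p under 0.05, where 3.88 to 9.31% of all tested genes did. The largest of these counts was in Irisin_MPTP_M against Control_M, with 3 higher and 2 lower, against 7.12% of all tested genes in either direction. In Irisin_MPTP_M against MPTP_M, 3 of the 16 were higher and 0 lower at an unadjusted p under 0.05, against 6.22% of all in either direction. The gene with the smallest p was Glul, which makes glutamine from the glutamate that astrocytes take up. Glul was at 1756, 1884 and 1919 CPM in Control_M, 1868, 1700 and 1950 CPM in MPTP_M and 2418, 2313 and 2455 CPM in Irisin_MPTP_M mice. All 3 Irisin_MPTP_M mice were above the other 6, with a log2 fold change of 0.38 (SE 0.06) against MPTP_M and an adjusted p of 0.107 in edgeR (quasi-likelihood test, Benjamini-Hochberg adjustment). Groups did not overlap for 14.2% of all tested genes against MPTP_M and for 13.6% against Control_M. In the delayed treatment experiment Glul overlapped between all groups at 2341 to 2750 CPM.

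**Figure D5:**
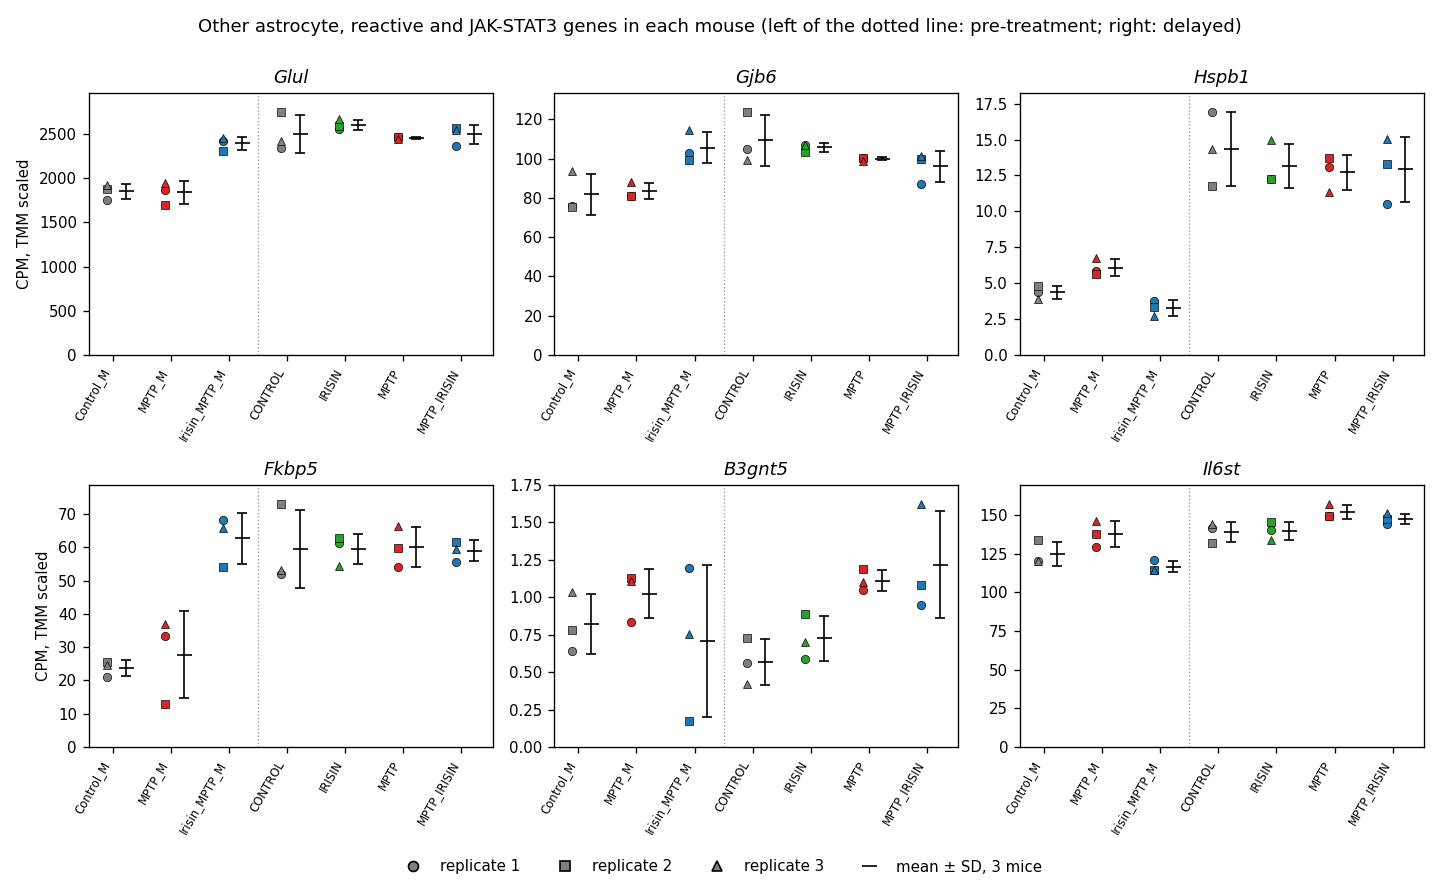
CPM (vertical axes, starting at 0) of Glul, Gjb6, Hspb1, Fkbp5, B3gnt5 and Il6st in each of the 21 mice by group, with the mean ± SD of 3 mice as a black dash with whiskers. Glul and Fkbp5 lie higher and Hspb1 lower in Irisin_MPTP_M mice than in the other 6 mice of that experiment, and none passed an adjusted p of 0.05.

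Genes of reactive astrocytes were grouped as pan-reactive (9 genes), A1 (11 genes, a set described after inflammation) and A2 (12 genes, a set described after ischaemia, 11 of them tested in the pre-treatment experiment). In all 3 lists 0 genes passed an adjusted p of 0.05 in edgeR in any comparison. At an unadjusted p under 0.05 there were 0 to 2 per list and comparison, where 3.88 to 9.31% of all tested genes passed. For MPTP_M against Control_M, 2 pan-reactive genes were higher and 0 lower at that level, 0 A1 genes were higher and 1 lower, and 1 A2 gene was higher and 0 lower, where 6.03% of all tested genes passed in either direction. The median log2 fold changes of the lists there were 0.11, -0.09 and 0.08, and those for MPTP against CONTROL were 0.04, 0.21 and 0.06, against -0.00 for all tested genes in both.

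Hspb1, a small heat shock protein of the pan-reactive list, was at 4.39, 4.82 and 3.92 CPM in Control_M, 5.84, 5.66 and 6.74 CPM in MPTP_M and 3.77, 3.35 and 2.71 CPM in Irisin_MPTP_M mice. The 3 groups did not overlap, with MPTP_M highest. Of all tested genes, 11.6% had groups that did not overlap in MPTP_M against Control_M. The share was 14.2% for Irisin_MPTP_M against MPTP_M and 13.6% for Irisin_MPTP_M against Control_M. The log2 fold change of Hspb1 for Irisin_MPTP_M against MPTP_M was -0.89 (SE 0.17), with an adjusted p of 0.175 in edgeR (quasi-likelihood test, Benjamini-Hochberg adjustment). Fkbp5 of the A1 list, which is also a classical glucocorticoid target, was at 21.02, 25.7 and 24.6 CPM in Control_M, 33.4, 12.8 and 37.0 CPM in MPTP_M and 68.3, 53.9 and 65.9 CPM in Irisin_MPTP_M mice. The 3 mice given irisin before MPTP were above the other 6, with a log2 fold change of 1.40 (SE 0.33) against Control_M and an adjusted p of 0.344 in edgeR's test. The shares of all tested genes without overlap are those given for Hspb1. B3gnt5 of the A2 list, a glycosyltransferase, had a log2 fold change of 1.09 (SE 0.31) for MPTP_IRISIN against CONTROL, with an adjusted p of 0.381 in edgeR's test.

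Of 11 genes of the JAK-STAT3 route, 10 were tested in each experiment, and 0 passed an adjusted p of 0.05 in edgeR in any comparison. Per comparison, 0 to 2 had an unadjusted p under 0.05, where 3.88 to 9.31% of all tested genes did. The smallest p was that of Il6st, which codes for the shared receptor chain gp130. Il6st was at 130, 138 and 146 CPM in MPTP_M and at 121, 115 and 114 CPM in Irisin_MPTP_M mice, without overlap (14.2% of all tested genes). Its log2 fold change was -0.24 (SE 0.07), with an adjusted p of 0.548 in edgeR (quasi-likelihood test, Benjamini-Hochberg adjustment).

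Markers of other cells were read beside these results, and in 9 marker lists 0 genes passed an adjusted p of 0.05 in edgeR in any comparison. In the comparison that held the lower Aqp4, Irisin_MPTP_M against MPTP_M, the 5 endothelial markers had 2 higher and 2 lower at an unadjusted p under 0.05, against 6.22% of all tested genes, and the smallest p was that of the tight junction gene Cldn5 (log2 fold change 0.53, SE 0.09, edgeR's adjusted p = 0.129). Microglia markers summed to 211 to 239 CPM in Control_M, 181 to 217 CPM in MPTP_M and 186 to 204 CPM in Irisin_MPTP_M mice, and Cx3cr1, a chemokine receptor of microglia, had a log2 fold change of -0.69 for MPTP_M against Control_M (edgeR's adjusted p = 0.579). In the delayed treatment experiment the microglia sum was 223 to 253 CPM in CONTROL, 227 to 270 CPM in IRISIN, 235 to 262 CPM in MPTP and 228 to 245 CPM in MPTP_IRISIN mice. Neuronal markers summed to 3834 to 4283 CPM in all mice of both experiments. Ependymal markers summed to 29.3 to 56.0 CPM in the pre-treatment and 37.9 to 60.1 CPM in the delayed treatment experiment, and meningeal fibroblast markers to 39.2 to 56.2 CPM and 58.0 to 138 CPM. Over the 21 mice, Vim had Pearson's r = 0.52 with the ependymal sum and 0.50 with the meningeal fibroblast sum. Both were taken on the log2 scale relative to the mean of each experiment. Within the pre-treatment experiment they were 0.86 and 0.67, and within the delayed treatment experiment 0.21 and 0.44. The part of any of these cells in the levels of the astrocyte genes was not tested.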

How the data were processed

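The 10 genes and all gene lists were chosen with earlier results of these data known. For oligodendrocytes, 1 marker of the list is not reported here and was left out of the sum. RNA-seq of dissected mouse nigral tissue was run on an Illumina NovaSeq instrument. Raw counts per gene and mouse were deposited, made by the authors with featureCounts. The authors also deposited FPKM, which were used to compare levels between genes. HISAT, StringTie and edgeR are named in the submitters' processing notes, without versions. These notes also name the build mm9, whereas 92.0% and 94.3% of gene starts and ends in the tables equal those of GENCODE M21 (GRCm38), which were used here. Annotation and strand of counting are not given in the sources used here.

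Mice were grouped by the sample labels. The test was the two-sided quasi-likelihood test of edgeR 4.0.16 under R 4.3.3, after filterByExpr (minimum count 10, minimum total 15) and TMM scaling, with all groups of 1 experiment in 1 fit and Benjamini-Hochberg adjustment over all 22641 or 21922 tested genes, at a threshold of 0.05. There were 9 comparisons. CPM are TMM scaled. Intervals are 95% and come from the standard error of the fit. The groups are small, since 3 mice against 3 cannot go below an exact permutation p of 0.10. The p-values set a group difference against the spread between mice within groups, estimated over all groups of the fit and with information shared across genes.

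Alternatives were DESeq2 1.42.0, limma 3.58.1 on log2(FPKM + 1) and log2(FPKM + 0.1), median ratio scaling, no filter beyond any count, a filter at a mean of 1 FPKM, a fit of the compared groups alone, a replicate block, and leaving out each mouse in turn. Same-numbered mice did not deviate together (correlations of -0.10 to 0.16 over 24 pairs, 1 of them above 0.1). No 2 mice of a group differed by less than the sampling noise (smallest chi-square per gene 37.2 over 21 pairs). The steps were tested on simulated counts. All 10 genes were named, and in each list the gene with the smallest p where none passed the threshold, together with Gjb6, which was chosen for the plot after its values were seen. Besides these, the list genes named by this rule were Mog for oligodendrocytes, Rarres2 for ependymal cells, Ttr for the choroid plexus, Lum for meningeal fibroblasts, S100a9 for neutrophils, Slc6a3 for dopaminergic neurons and Tubb3 for neurons. Promoter and gene tables were read with Python 3.11.15 and pandas 2.3.3, and plots were drawn with matplotlib 3.10.9.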

Additional observations from a re-analysis of the deposited data

Results flagged for a closer look

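Gja1 went opposite ways with irisin in the 2 experiments. The log2 fold change was -0.13 for Irisin_MPTP_M against MPTP_M, where all 3 mice given irisin (211 to 218 CPM) were below the mean of 234 CPM in MPTP_M, and 0.26 for MPTP_IRISIN against MPTP, where all 3 mice given irisin (246 to 253 CPM) were above the mean of 209 CPM in MPTP. Neither passed an adjusted p of 0.05 in edgeR, and the difference between the experiments was not tested. Without replicate 3 of MPTP, at 146 CPM, the second value was 0.06.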

How the results depend on the processing

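In each of the 9 comparisons 0 of the 10 genes passed an adjusted p of 0.05 in edgeR, and this count was 0 in all 131 values recomputed under the alternatives, DESeq2 and limma included, with 0 to 3 genes at an unadjusted p under 0.05 by comparison and tool. With the replicate number as a block the count was 0 in every comparison as well, and same-numbered mice share only a number. Of 1301 recomputed log2 fold changes of single genes, 0 passed the threshold, 1201 kept their direction and 100 turned sign. The smallest adjusted p over all of them was 0.0782, for Lcn2 in MPTP against CONTROL with DESeq2. Lcn2 has a mean under 1 FPKM, so that filter gave no value for it. Leaving out each mouse in turn also left the count at 0. Log2 fold changes of Lcn2 depended most on single mice, being -3.04 to -1.35 for MPTP against CONTROL when each mouse was left out, and on the scale, being -0.76 with limma on log2(FPKM + 1).

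Lcn2 had the fewest counts of the 10 genes, 0 to 420 per mouse, and also the largest spread within groups. The part of depth in that spread was not tested.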

Other observations

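Of the marker genes with the smallest p in their list, the dopamine transporter Slc6a3 had a log2 fold change of -1.57 (SE 0.24) for Irisin_MPTP_M against Control_M, with an adjusted p of 0.0886 in edgeR's quasi-likelihood test. The neutrophil gene S100a9 was at 1.26, 2.62 and 1.67 CPM in CONTROL, 1.92, 1.17 and 1.42 CPM in IRISIN, 0.589, 0.740 and 0.550 CPM in MPTP and 1.72, 1.88 and 1.23 CPM in MPTP_IRISIN mice. Every MPTP mouse was below every mouse of the other groups of that experiment. Groups did not overlap for 16.2% of all tested genes in MPTP against CONTROL and for 10.7% in MPTP_IRISIN against MPTP. The log2 fold change of S100a9 was -1.56 (SE 0.32) for MPTP against CONTROL, with an adjusted p of 0.175 in edgeR's test. Ttr, which codes for the transport protein transthyretin of the choroid plexus, had a log2 fold change of 6.57 for MPTP_M against Control_M, with an adjusted p of 0.818 in edgeR's test. This value rests on replicate 2 of MPTP_M, at 1539 CPM of Ttr, since the other 2 MPTP_M mice were at 3.51 and 5.03 CPM and the Control_M mice at 2.86 to 7.26 CPM. Rarres2 had one of -0.63 and Tubb3 one of -0.23 for MPTP_IRISIN against CONTROL, Mog one of -0.25 for MPTP_IRISIN against MPTP, and Lum an interaction of -0.75, all with an adjusted p above 0.05 in edgeR's test.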
